A study of Mus musculus with 6 samples.

Results

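The replication-dependent histone genes were taken as every array feature whose annotation symbol begins with H2ac, H2bc, H3c or H4c and a digit, or with an older Hist1h to Hist4h form, and 49 of the 22206 features met this rule. They comprised 13 H2A, 15 H2B, 10 H3 and 11 H4 genes, and 0 carried an older symbol. Clariom S mouse arrays were hybridised with RNA of 6 whole mouse hearts, with 1 heart per array and 2 hearts in each of 3 groups that the series design calls independent biological replicates. All hearts came from male mice whose left coronary artery was ligated at 8 weeks of age to produce a myocardial infarction, and all carried Tcf21iCre/Tomato. The 2 groups named Ctrl had this genotype alone and were sampled 2 months (8W-Ctrl) or 3 months (12W-Ctrl) after infarction, while the TTg group (12W-TTg) also carried MGTH2A and was sampled at 3 months. Mice with an ejection fraction above 45% at 2 days after infarction had been removed by the authors. TTg hearts at 2 months and uninfarcted hearts were not analysed here. Tcf21iCre is an inducible Cre recombinase expressed from Tcf21, a gene of cardiac fibroblasts, and Tomato is a fluorescent reporter. MGTH2A is a Cre-dependent cassette for Mef2c, Gata4, Tbx5 and Hand2, transcription factors of heart development, used to convert fibroblasts towards cardiomyocytes, the subject named in the title of the series. The time at which Cre was induced and the share of cells that carried the active cassette are not given in the sources used here. The labelled tissue was heart, and the mean log2 signal of 6 cardiomyocyte markers lay between 17.79 and 18.51 on the 6 arrays, while that of 4 testis germ cell markers lay between 3.12 and 3.60, below the dim cutoff of 3.65 used here.

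Nucleosomes wrap DNA around an octamer of the core histones H2A, H2B, H3 and H4. Most core histone is made from replication-dependent genes, which lie in clusters and are transcribed when cells copy their DNA. Their mRNAs lack introns and usually end in a conserved stem-loop in place of a poly(A) tail, and the stem-loop binding protein Slbp, the U7 ribonucleoprotein (with Lsm10 and Lsm11) and the cluster-bound factor Npat govern their production. Adult cardiomyocytes divide rarely, whereas fibroblasts, macrophages and endothelial cells of an infarcted heart can proliferate. Variants such as H3f3a and H2az1 are made throughout the cell cycle and replace the replication-dependent proteins in chromatin of resting cells.

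By the RefSeq gene table, 41 of the 49 genes lay on chromosome 13 and 8 on chromosome 3. A search that needed the strand of each gene found 7 divergent H2A/H2B pairs, which share 1 upstream region and are read in opposite directions. Each was an H2A and an H2B gene with starts at most 500 bases apart. Promoter sequence from RefSeq (mouse assembly GRCm38.p6) was matched for 44 of the 49 genes, and H2bc21, H2bc4, H3c1, H3c7 and H4c14 had no entry. Strand came from the same source, so these genes were left out of the search for pairs. Any pair with H2bc4 or H2bc21 could thus not be found. In the 250 bases before the start, searched on both strands, the box CCAAT was found in 35 of 44 histone promoters (79.5%) and in 33.8% of 32851 mouse promoters. The letters TATAAA were found in 21 (47.7%) against 12.4% of all promoters, and the octamer ATGCAAAT, the sequence recognised by Oct factors, in 12 (27.3%) against 1.6%. The octamer was found in 6 of 13 H2A and 6 of 13 H2B promoters and in 0 of 8 H3 and 0 of 10 H4 promoters. CCAAT was found in all 13 H2A and all 13 H2B promoters, in 6 of 8 H3 promoters and in 3 of 10 H4 promoters. Windows of a divergent pair overlap, so the H2A and H2B counts share sequence. Where the interval of a pair is shorter than 250 bases, the window also reaches into the partner gene. The TATAAA counted for H2bc15 reaches there, since the interval of its pair held none. So does that of H2bc12, since the window of its partner H2ac12 held none and covers their whole interval of 177 bases.

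The upstream regions of the genes on which the results turn are given 5′ to 3′ in lower case, with CCAAT (or ATTGG on the opposite strand), TATAAA and the octamer in capitals. The H2ac15/H2bc15 region (chr13:21753913-21754075) and the H2ac11/H2bc11 region (chr13:22042950-22043197) are the whole intervals of 163 and 248 bases between the starts of a pair, read on the minus strand towards the H2A gene. The others are the 150 bases before the start, read towards the gene: H2ac6 (chr13:23683960-23684109, minus strand), H4c3 (chr13:23698459-23698608, minus), H4c11 (chr13:21734884-21735033, plus), H3c14 (chr3:96246535-96246684, plus) and H3c15 (chr3:96239128-96239277, minus). H2ac15 had the lowest difference of any histone gene in TTg against Ctrl at 3 months, H2ac6 stayed close to level, and H4c11 had the smallest difference of the H4 genes in TTg against Ctrl at 2 months (-0.41). H4c3 was ordered over the 3 groups, and H3c14 and H3c15 had identical values.
H2ac15/H2bc15: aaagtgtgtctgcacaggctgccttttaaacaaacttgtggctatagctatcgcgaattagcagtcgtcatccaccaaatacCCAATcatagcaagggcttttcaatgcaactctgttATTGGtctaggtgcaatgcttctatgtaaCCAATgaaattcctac
H2ac11/H2bc11: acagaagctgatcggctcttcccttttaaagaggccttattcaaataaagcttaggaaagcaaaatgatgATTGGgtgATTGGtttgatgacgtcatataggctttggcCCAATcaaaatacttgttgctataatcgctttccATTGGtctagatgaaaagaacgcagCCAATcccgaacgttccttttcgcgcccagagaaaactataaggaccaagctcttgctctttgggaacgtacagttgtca
H2ac6: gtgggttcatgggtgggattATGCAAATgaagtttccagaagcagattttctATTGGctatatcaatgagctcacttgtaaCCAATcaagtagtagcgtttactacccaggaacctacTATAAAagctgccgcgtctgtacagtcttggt
H4c3: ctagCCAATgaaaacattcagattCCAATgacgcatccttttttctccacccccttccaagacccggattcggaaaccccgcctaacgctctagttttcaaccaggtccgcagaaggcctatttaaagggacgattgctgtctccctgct
H4c11: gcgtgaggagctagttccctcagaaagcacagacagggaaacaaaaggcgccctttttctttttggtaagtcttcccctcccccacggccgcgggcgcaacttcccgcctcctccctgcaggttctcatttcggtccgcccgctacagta
H3c14: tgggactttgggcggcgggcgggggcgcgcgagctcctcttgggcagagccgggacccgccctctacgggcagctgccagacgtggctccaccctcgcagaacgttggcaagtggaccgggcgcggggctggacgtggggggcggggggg
H3c15: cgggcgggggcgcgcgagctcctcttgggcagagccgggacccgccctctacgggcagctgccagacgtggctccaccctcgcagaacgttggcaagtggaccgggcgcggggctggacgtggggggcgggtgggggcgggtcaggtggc
The H2ac15/H2bc15 interval held 3 CCAAT boxes and the H2ac11/H2bc11 interval 5, and neither held TATAAA or the octamer. H2ac6 held 2 CCAAT boxes, 1 TATAAA and 1 octamer, and H4c3 held 2 CCAAT boxes. None of the 3 motifs was found in these 150 bases of H4c11, H3c14 or H3c15. The upstream sequences of H3c14 and H3c15 shared an unbroken run of 131 of the 150 bases.

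Some features could not be separated by their values. H3c14 and H3c15 had the same value on every array (10.04 and 8.83 in Ctrl at 2 months, 9.07 and 8.19 in 3-month Ctrl, 8.23 and 7.39 in TTg), so they give 1 measurement rather than 2. H2ac24 had the same values as a feature without a symbol (10.43 and 9.36, 10.25 and 8.73, 8.94 and 7.38 in the same order), as did H4c18 with another unnamed feature (11.54 and 9.75, 10.70 and 8.98, 9.24 and 8.81). Equality was taken on the values as written in the deposited table. Over all features, 270 were in 114 such sets. The next closest pair of histone genes, H2ac11 and H2ac24, differed by at most 0.33 on any array, and H3c6 and H3c10 by at most 0.41. Coding sequences of replication-dependent histones of 1 type are nearly the same, so signal from 1 gene may reach the probes of another, and single genes below are uncertain to that extent. Counting features with identical values once dropped the repeat without a new fit. It could not change a call, since 0 of the 49 genes passed the threshold in any of the comparisons.

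Histone signal differed between the 2 hearts of a group about as much as between groups. The median log2 signal of the 49 genes was 8.32 and 6.92 on the Ctrl arrays at 2 months, 8.20 and 6.58 on the Ctrl arrays at 3 months, and 6.67 and 6.10 on the TTg arrays, each pair in the order replicate 1, replicate 2. Replicate 1 of each group thus carried more histone signal than replicate 2, and the lower Ctrl heart at 3 months was close to the higher TTg heart. Over all 22206 features the array medians spanned only 4.91 to 5.0. Replicate 1 exceeded replicate 2 for 42 of 49 genes in Ctrl at 2 months (median gap 1.02), 45 of 49 in Ctrl at 3 months (0.88) and 38 of 49 in TTg (0.44), whereas over all features it was the higher for 47.2%, 51.0% and 50.4%. The highest value lay on replicate 1 of Ctrl at 2 months for 33 genes and on replicate 1 of Ctrl at 3 months for 11, and the lowest lay on TTg replicate 2 for 37. The heat map of deviations shows this order.

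**Figure D1:**
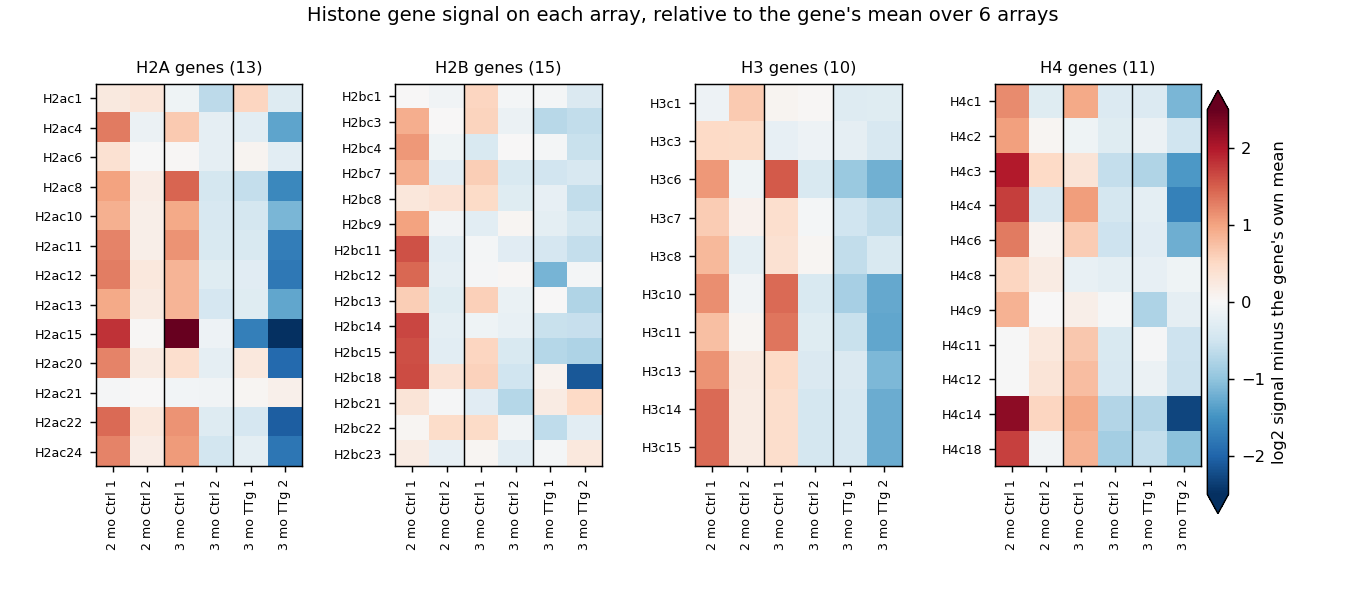
Log2 signal of each of the 49 histone genes on each array (columns: Ctrl at 2 months, Ctrl at 3 months, TTg at 3 months, replicates 1 and 2) minus the gene's own mean over the 6 arrays (colour), in 1 panel per histone type. Replicate 1 of both Ctrl groups is mostly above the mean and TTg replicate 2 mostly below it, with the largest deviations for H2ac15, and the rows of H3c14 and H3c15 are the same.

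Each of the 4 types had its highest median on replicate 1 of a Ctrl group and its lowest on TTg replicate 2. H2A genes had median signals of 9.83 and 9.07 in Ctrl at 2 months, 9.81 and 8.53 in 3-month Ctrl, and 8.49 and 7.19 in TTg. The values for H2B were 7.37 and 6.0, 6.16 and 6.01, and 6.06 and 5.85, and those for H3 were 7.70 and 6.74, 8.21 and 6.43, and 5.96 and 5.53. H4 had 10.44 and 8.75, 9.33 and 8.38, and 8.63 and 8.24. For H2A and H3 both TTg medians lay below all 4 Ctrl medians, and for H2B and H4 the median of TTg replicate 1 lay within the Ctrl range. Levels of different types are not compared here, because a probe set's signal depends on its own probes.

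The first comparison, TTg against Ctrl at 3 months, asked how hearts with the cassette differed from hearts without it at the same time. Histone genes were lower in TTg for 44 of the 49 genes (47.9% of all features had a lower mean) and higher for 5 (50.6%), with a median log2 difference of -0.81 against 0.01 over all features. The median was -1.06 for H2A, -0.49 for H2B, -0.82 for H3 and -0.81 for H4. In all, 15 genes were at least 2-fold lower, which was 30.6% of the genes against 2.87% of all features, and 0 were at least 2-fold higher (1.29% of all features). By type, these were 8 of 13 H2A, 1 of 15 H2B, 3 of 10 H3 and 3 of 11 H4 genes. In whole-heart RNA, fewer cells that express histone genes and less histone RNA per cell cannot be told apart.

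No histone gene passed the test in this comparison: limma's moderated test, adjusted by Benjamini-Hochberg over all features, gave 0 of 49 genes under 0.05 (0.0045% of all features, 1 feature), and the smallest adjusted p among the 49 was 0.661. At an unadjusted p under 0.05, 7 of 49 genes were lower (4.11% of all features) and 1 was higher (3.35%). The arrays of the 2 groups did not overlap for 22 genes that were lower in TTg (44.9%, against 19.3% of all features) and 2 that were higher (19.1%). The 22 were 5 of 13 H2A, 7 of 15 H2B, 8 of 10 H3 and 2 of 11 H4 genes. Leaving out 1 array moved the median difference of the 49 genes to -0.38 without replicate 1 of Ctrl at 3 months, to -0.47 without TTg replicate 2 and to -1.22 without replicate 2 of Ctrl at 3 months, and the genes lower at an unadjusted p under 0.05 then numbered 1, 0 and 20. Without 1 array, the type medians ranged from -2.04 (without TTg replicate 1) to -0.55 (without TTg replicate 2) for H2A and from -0.73 to -0.28 for H2B. They ranged from -1.25 to -0.45 for H3 and from -1.38 to -0.23 for H4, with the lowest value without replicate 2 and the highest without replicate 1 of Ctrl at 3 months.

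**Figure D2:**
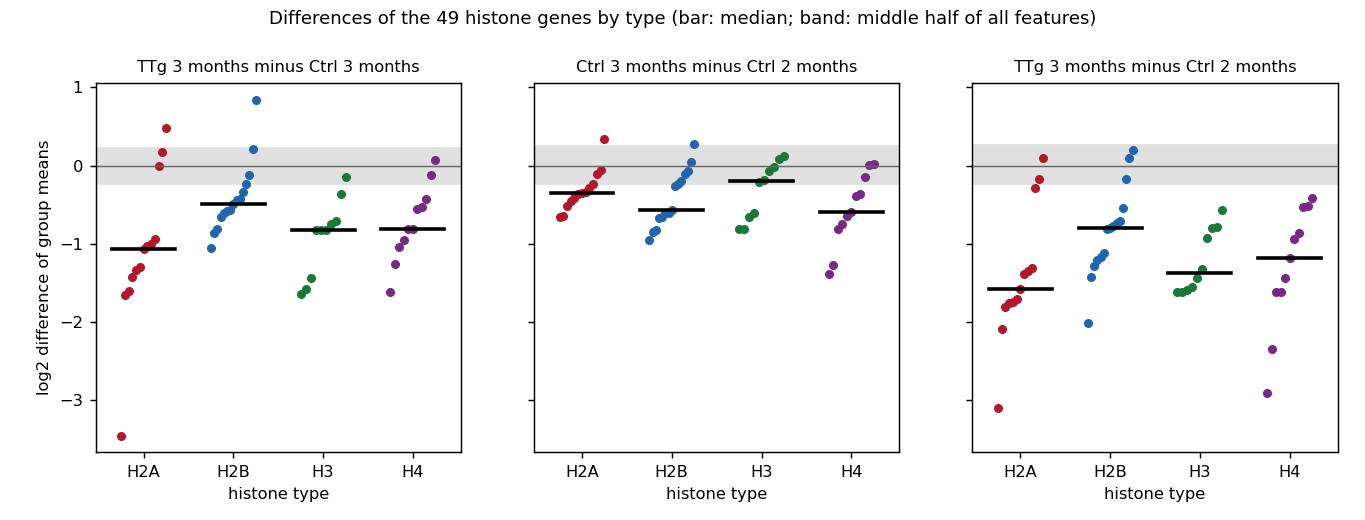
Log2 difference of group means for each histone gene (point), by histone type, in the 3 comparisons (panels); black bars are medians, the grey band spans the middle quartiles of all 22206 features, and the line is 0. In TTg against Ctrl at 3 months the H2A median is -1.06 and the H2B median -0.49, and in Ctrl at 3 against 2 months the medians lie between -0.59 and -0.20.

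Among H2A genes, H2ac15 had a log2 signal of 8.32 and 6.53 in Ctrl at 2 months, 9.17 and 6.37 in 3-month Ctrl, and 4.79 and 3.85 in TTg. Both TTg values lay below all 4 Ctrl values, and the 2 hearts of Ctrl at 3 months were 2.80 apart, the widest replicate gap of any histone gene in that group. Its difference in TTg from Ctrl at 3 months was -3.45 ± 0.94 (SE of the limma fit, n = 2 arrays per group, as for all errors below), 10.9-fold lower, with an adjusted p of 0.661 from limma (unadjusted 0.00771). It was -2.05 without replicate 1 and -4.85 without replicate 2 of Ctrl at 3 months. H2ac22 read 11.64 and 10.49, 11.35 and 9.89, and 9.80 and 8.15 in the same order of groups, with TTg replicate 1 only just below the lower Ctrl heart, and differed by -1.65 ± 0.69. H2ac8 read 6.98 and 6.16, 7.42 and 5.53, and 5.38 and 4.36, and differed by -1.60 ± 0.65. Both TTg hearts were again below all Ctrl hearts for this gene. With 1 array left out, the difference ranged from -2.47 to -0.82 for H2ac22 (nearest to 0 without TTg replicate 2) and from -2.55 to -0.66 for H2ac8 (nearest to 0 without replicate 1 of Ctrl at 3 months). H2ac24 differed by -1.33 ± 0.68, but its higher TTg value (8.94) exceeded the lower Ctrl value at 3 months (8.73).

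Not all H2A genes were lower. H2ac6 was close to level over the 6 arrays, at 7.20 and 6.81, 6.85 and 6.60, and 6.89 and 6.55, and its difference was -0.01 ± 0.26. H2ac21 stayed between 4.34 and 4.55 on all 6 arrays and differed by 0.17 ± 0.22, with both TTg values above the Ctrl values. H2ac1 encodes the testis H2A protein TH2A and read 4.95 and 5.01, 4.61 and 4.05, and 5.25 and 4.38, a difference of 0.48 ± 0.35 with groups that overlapped. The 9 H2A genes besides these and H2ac15 had differences from -1.65 to -0.94. H2ac6, H2ac21 and H2ac1 were singled out after their values were seen.

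Of the H2B genes, 13 of 15 were lower in TTg (47.9% of all features) and 2 were higher (50.6%). The H2B median was the nearest to 0 of the 4 types, except without replicate 1 of Ctrl at 3 months, where it was -0.31 and that of H4 was -0.23. H2bc18 read 8.51 and 7.24 in Ctrl at 2 months, 7.46 and 6.38 in 3-month Ctrl, and 6.97 and 4.76 in TTg, so that 1 TTg heart lay inside the Ctrl range and the other well below it. Its difference of -1.05 ± 0.76 was 0.05 without TTg replicate 2. H2bc3 read 5.20 and 4.30, 4.85 and 4.14, and 3.59 and 3.67, with both TTg hearts below all Ctrl hearts and near the dim cutoff. Its difference was -0.86 ± 0.37 (-0.51 without replicate 1 of Ctrl at 3 months). H2bc4 read 14.80 and 13.62, 13.35 and 13.73, and 13.67 and 13.17, a difference of -0.12 ± 0.42 with overlapping groups. Its highest value stood on the Ctrl array with the most histone signal at 2 months.

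H2bc21 went the other way. Its signal was 5.68 and 5.34 in Ctrl at 2 months, 5.08 and 4.65 in 3-month Ctrl, and 5.56 and 5.85 in TTg. Both TTg hearts were above both Ctrl hearts at 3 months but not above those at 2 months. The difference of 0.84 ± 0.27 (1.79-fold higher) had an unadjusted p of 0.0172 and an adjusted p of 0.661 in limma, and it was the only histone gene higher in TTg at an unadjusted p under 0.05. H2bc21 is known to give polyadenylated as well as stem-loop mRNA, as some histone genes do in cells that have stopped dividing. The RefSeq gene spanned more than 1000 bases for H2bc4, H2bc21, H2bc22 and H2bc23 and at most 911 for the other 45. The 4 long genes, all of them H2B genes, had a median difference of 0.04 (range -0.65 to 0.84), and the 45 short ones -0.81 (range -3.45 to 0.48). In Ctrl at 3 against 2 months the medians of long and short genes were -0.38 and -0.36. In TTg against Ctrl at 2 months they were -0.30 and -1.31. This grouping was chosen after the values were seen and was not tested.

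H3 genes were lower in TTg in 10 of 10 cases. H3c6 read 7.75 and 6.57 in Ctrl at 2 months, 8.20 and 6.29 in 3-month Ctrl, and 5.75 and 5.46 in TTg, a difference of -1.64 ± 0.64 (3.12-fold lower). H3c10 read 8.16 and 6.90, 8.40 and 6.62, and 6.16 and 5.72, a difference of -1.57 ± 0.63. H3c11 read 7.64 and 6.92, 8.22 and 6.58, and 6.33 and 5.59, a difference of -1.44 ± 0.56. In all 3 genes the TTg hearts lay below every Ctrl heart, and the Ctrl hearts at 3 months were wide apart. Without replicate 1 of Ctrl at 3 months their differences were -0.69, -0.68 and -0.62. H3c7 had a smaller difference of -0.74 ± 0.29, with values of 6.04 and 5.51, 5.83 and 5.35, and 4.91 and 4.79. These 4 genes had unadjusted p between 0.0357 and 0.0403 and adjusted p of 0.661 in limma. H3c14 and H3c15, the genes with identical values, differed by -0.82 ± 0.50, with overlapping groups.

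The H3 genes encode H3.1 or H3.2, proteins that differ at a single residue. The H3.1 genes (H3c1, H3c8, H3c10 and H3c11) had a median difference of -1.08 (range -1.57 to -0.36) and the 6 other genes -0.82 (range -1.64 to -0.14), so the ranges overlapped nearly throughout. H3c1 was the only histone gene with a mean signal under the dim cutoff, and its difference is limited by the background signal.

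All H4 genes encode the same protein, and 10 of 11 were lower in TTg. H4c14 read 10.44 and 8.75 in Ctrl at 2 months, 9.16 and 7.48 in 3-month Ctrl, and 7.48 and 5.91 in TTg, a difference of -1.62 ± 0.79 in which the higher TTg heart equalled the lower Ctrl heart at 3 months. H4c4 read 10.70 and 8.56, 10.01 and 8.53, and 8.73 and 7.29, a difference of -1.26 ± 0.82. H4c1 read 12.84 and 11.35, 12.60 and 11.31, and 11.31 and 10.52, a difference of -1.04 ± 0.60. In these 3 genes the 2 groups at 3 months touched or overlapped, and without replicate 1 of Ctrl at 3 months the differences were -0.79, -0.52 and -0.40. H4c18 differed by -0.81 ± 0.70, and without replicate 1 of Ctrl at 3 months its difference was 0.04.

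H4c11, the H4 gene with the highest mean signal, read 12.48 and 12.76, 13.16 and 12.11, and 12.45 and 11.96. Its difference was -0.43 ± 0.38, and 0.10 without replicate 1 of Ctrl at 3 months. H4c8 read 9.07 and 8.73, 8.34 and 8.28, and 8.33 and 8.42, a difference of 0.07 ± 0.24. It was the only H4 gene not lower in TTg than in Ctrl at 3 months, and its 2 groups overlapped. H4c8 was singled out after its values were seen.

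**Figure D3:**
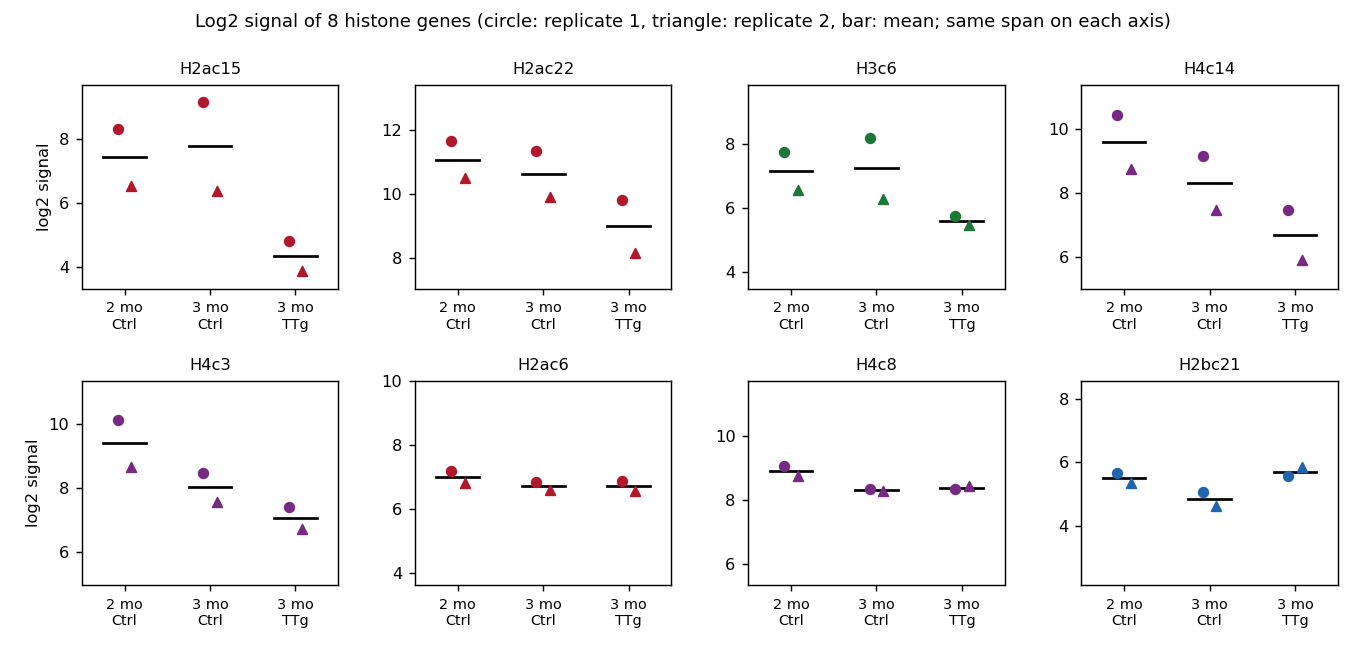
Log2 signal of 8 histone genes on the 6 arrays (circle: replicate 1, triangle: replicate 2, bar: group mean), with the same span of signal on every vertical axis. H2ac15, H2ac22 and H3c6 have both TTg hearts below all Ctrl hearts, H4c14 has 1 TTg heart level with a Ctrl heart at 7.48, H2ac6 and H4c8 lie nearly level, and H2bc21 has its highest value, 5.85, in TTg.

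In divergent pairs, the H2A gene had the lower difference of the 2 partners in 6 of 7 pairs, although both are read from 1 upstream region. The H2A partners had a median difference of -1.42 and the H2B partners -0.58. For H2ac15/H2bc15 the differences were -3.45 and -0.81, for H2ac11/H2bc11 -1.42 and -0.34, for H2ac8/H2bc8 -1.60 and -0.49, and for H2ac22/H2bc22 -1.65 and -0.65. H2bc15 itself read 8.46 and 6.58 in Ctrl at 2 months, 7.38 and 6.46 in 3-month Ctrl, and 6.13 and 6.08 in TTg, so both TTg hearts were below all Ctrl hearts for both genes of that pair. The exception was the pair of testis histones H2ac1/H2bc1, at 0.48 and -0.44. Pairs of features share their hearts, and the gap between partners was not tested. The 7 pairs leave out any pair with H2bc4 or H2bc21, whose strand was not available.

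**Figure D4:**
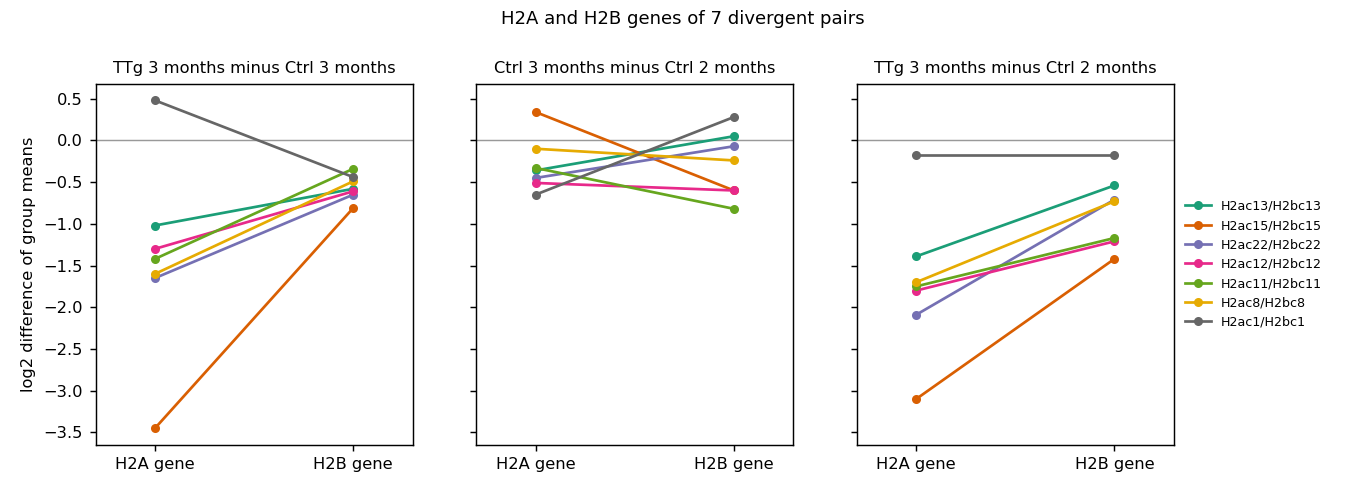
Log2 difference of group means for the H2A gene (left) and the H2B gene (right) of 7 divergent pairs, joined by a line, in the 3 comparisons (panels). Lines go up from H2A to H2B in 6 of 7 pairs for TTg against Ctrl at 3 months and at 2 months, and in 3 of 7 for Ctrl at 3 against 2 months.

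The second comparison, Ctrl at 3 months against Ctrl at 2 months, covered time after infarction without the cassette. The means of 42 of 49 histone genes were lower at 3 months (48.4% of all features) and 7 were higher (50.3%), with a median difference of -0.36 against 0.01 over all features. The type medians were -0.35 for H2A, -0.56 for H2B, -0.20 for H3 and -0.59 for H4. At least 2-fold lower were 2 genes (1.83% of all features) and at least 2-fold higher 0 (1.7%). The median difference was smaller than the median gap between the 2 hearts of either group (1.02 and 0.88). The median of the 49 genes turned to 0.05 without replicate 1 at 2 months and to 0.06 without replicate 2 at 3 months. It was -0.81 without replicate 2 at 2 months and -0.86 without replicate 1 at 3 months. The same arrays moved the type medians: without replicate 1 at 2 months they were 0.13 for H2A, 0.10 for H2B, -0.04 for H3 and -0.12 for H4, and without replicate 2 at 3 months 0.28, -0.14, -0.06 and -0.06. Without replicate 2 at 2 months they were -0.72, -0.81, -0.62 and -1.23, and without replicate 1 at 3 months -1.0, -0.61, -0.79 and -0.84. The direction of the H2A, H2B and overall medians, and the order of the types, thus depended on single hearts.

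In limma 0 of 49 genes passed an adjusted p under 0.05 in this comparison (0.0045% of all features), the smallest adjusted p being 0.547. H2bc21, H3c3, H4c3 and H4c8 were lower at an unadjusted p under 0.05 (4 of 49, or 8.16%, against 4.09% of all features), and 0 were higher (3.91%). Without replicate 1 at 2 months or replicate 2 at 3 months, 0 genes were lower at that p, and without replicate 2 at 2 months 14 were. The groups did not overlap for 7 genes that were lower (14.3%, against 17.4% of all features) and for 0 that were higher (18.3%). The share that was lower without overlap was thus near the background, and the share that was higher without overlap was below it.

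H3c3 read 5.80 and 5.77 at 2 months and 5.09 and 5.17 at 3 months in Ctrl, a difference of -0.66 ± 0.22, with close replicates on both sides. In H4c3 the values were 10.13 and 8.66 against 8.47 and 7.55, a difference of -1.39 ± 0.54 that was -0.65 without replicate 1 at 2 months. H4c14 had a difference of -1.27 ± 0.79 with overlapping groups, and H4c8 one of -0.59 ± 0.24 without overlap. H2bc21 differed by -0.65 ± 0.27, and its TTg hearts lay near the level of Ctrl hearts at 2 months. The widest positive difference was that of H2ac15, at 0.34 ± 0.94. The 8 genes of chromosome 3 were all lower at 3 months, with a median of -0.72, and the 41 genes of chromosome 13 had a median of -0.33. For TTg against Ctrl at 3 months the medians of the same clusters were -0.82 and -0.71. The 8 genes of chromosome 3 include H3c14 and H3c15, which give 1 measurement. Cluster medians with single hearts left out are not given here, and the gap between clusters was not tested.

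The third comparison set TTg at 3 months against Ctrl at 2 months, so it differs in both genotype and time and shares its arrays with the other two. Histone genes were lower in TTg for 46 of 49 (46.9% of all features) and higher for 3 (51.9%), with a median difference of -1.21 against 0.02. The type medians were -1.58 for H2A, -0.79 for H2B, -1.38 for H3 and -1.18 for H4, and 28 genes (57.1%) were at least 2-fold lower against 3.4% of all features, with 0 at least 2-fold higher (1.71%). The arrays did not overlap for 38 genes that were lower (77.6%, against 18.9%) and for H2ac21, which was higher (21.2%). By type the 38 were 9 of 13 H2A, 9 of 15 H2B, 10 of 10 H3 and 10 of 11 H4 genes.

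With limma, 0 of 49 genes passed an adjusted p under 0.05, as did 0 of all features, and the smallest adjusted p of a histone gene was 0.340. At an unadjusted p under 0.05, 26 of 49 were lower (53.1%, against 5.41% of all features) and 0 were higher (4.3%). The 26 became 4 without replicate 1 of Ctrl at 2 months and 3 without TTg replicate 2, and the median difference became -0.68 and -0.90. Type medians nearest to 0 were -0.95 for H2A (without TTg replicate 2) and -0.26 for H2B, -0.96 for H3 and -0.56 for H4 (all without replicate 1 of Ctrl at 2 months). The lowest were -2.21 for H2A (without TTg replicate 1) and -1.35, -1.78 and -1.93 for the others (without replicate 2 of Ctrl at 2 months).

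H4c3 had the smallest p of the 49, with TTg values of 7.40 and 6.71 against 10.13 and 8.66, a difference of -2.34 ± 0.54 (5.06-fold lower, unadjusted p 0.00327, adjusted p 0.340 in limma). H4c14 differed by -2.90 ± 0.79 (7.46-fold lower, adjusted p 0.369 in limma), the lowest among H4 genes, and here its groups did not overlap. H2ac15 differed by -3.10 ± 0.94, H2ac22 by -2.09 ± 0.69 and H2bc18 by -2.01 ± 0.76. H3c3 had TTg values of 5.07 and 4.90, a difference of -0.80 ± 0.22 (adjusted p 0.377 in limma). H3c3 and H4c3 were the only histone genes in which both TTg hearts were below both Ctrl hearts at 3 months and these below both Ctrl hearts at 2 months. The share of all features with this order was not counted, so no result is drawn from it. The H2A partner had the lower difference in 6 of 7 divergent pairs, with medians of -1.75 for H2A and -0.73 for H2B.

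Across all Ctrl hearts, both TTg values were below all 4 Ctrl values for 21 of 49 histone genes (42.9%), against 1811 of 22206 features (8.16%). The 2 Ctrl groups were put together here only to describe the position of the TTg hearts.

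Other genes of histone supply and of the cell cycle were taken from 6 lists of 105 genes in all. Of these, 93 had a feature, and 0 passed an adjusted p under 0.05 in limma in TTg against Ctrl at 3 months. DNA replication genes had a median difference of -0.12, with 17 of 24 lower. Ccna2, the cyclin of S phase, differed by -1.11 ± 0.51 without overlap (-0.29 without replicate 1 of Ctrl at 3 months). Mcm3, a subunit of the replicative helicase, differed by -0.54 ± 0.34, and Gins2, a partner of that helicase, by -0.52 ± 0.27. Pcna, the sliding clamp of the replication fork, differed by -0.28 ± 0.24. Both TTg values of Ccna2 and of Gins2 lay under the dim cutoff, as did both values of Gins2 in Ctrl at 3 months (3.60 and 3.64). Mitosis genes had a median of -0.24, with 13 of 17 lower, among them the checkpoint kinase genes Bub1b at -0.92 ± 0.27 and Bub1 at -0.78 ± 0.27. Both had dim signal in TTg and lay near or under the cutoff in Ctrl at 3 months. The Ctrl values there were 3.81 and 3.25 for Bub1b and 3.62 and 3.71 for Bub1. Mki67, a nuclear marker of proliferating cells, differed by -0.81 ± 0.43 (-0.26 without the same array), and Nusap1, a spindle protein, by -0.80 ± 0.40.

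Genes for the making and decay of histone mRNA ran in both directions. The 16 with a feature had a median of 0.04, with 7 lower and 9 higher. Slbp differed by 0.06 ± 0.25 and Npat by 0.28 ± 0.33. Lsm10, a subunit of the U7 ribonucleoprotein, differed by -1.20 ± 0.51 without overlap, its partner Lsm11 by -0.32 ± 0.23. Upf1, a helicase in the decay of histone mRNA, differed by 0.46 ± 0.26, and Sympk, a scaffold of the cleavage complex, by 0.45 ± 0.30.

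Histone chaperones had a median of -0.01 over 15 genes, with Nasp, a carrier of H3 and H4, at -0.50 ± 0.23, Asf1b, another H3 and H4 chaperone, at 0.38 ± 0.31 and Nap1l1, a chaperone of H2A and H2B, at -0.31 ± 0.27. Linker H1 genes had a median of 0.13 over 8 genes, with 3 lower and 5 higher. H1f1 differed by -0.59 ± 0.39 (0.02 without replicate 1 of Ctrl at 3 months), H1f6, a testis form, by -0.39 ± 0.28 and H1f8, an oocyte form, by -0.32 ± 0.29. H1f6 and H1f8 lay under the dim cutoff on every array. Replication-independent variants had a median of -0.06 over 13 genes. H3f3b, one of the genes for H3.3, differed by -0.82 ± 0.48 and its counterpart H3f3a by 0.08 ± 0.26. H2ax, whose protein marks DNA breaks, differed by -0.59 ± 0.31, and Macroh2a2 by -0.58 ± 0.34. In TTg against Ctrl at 3 months all 6 list medians thus lay between -0.24 and 0.13. The median was -0.81 for the 49 core histone genes of the rule, which takes in no linker H1 gene, and that gap was not tested. Over the 6 arrays, median signals were 3.79 to 3.94 for linker H1 genes and 3.70 to 4.19 for mitosis genes. These lay near the dim cutoff of 3.65, so background signal limits how far these lists could fall. DNA replication genes had 4.54 to 5.47. The chaperone, mRNA processing and variant lists had 6.85 to 8.76, beside 6.10 to 8.32 for the histone genes. The variants include H2bl1, which lay under the cutoff on every array.

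The variants were not level in the comparisons with Ctrl at 2 months. In Ctrl at 3 against 2 months their median was -0.51, with 10 of 13 lower, beside -0.36 for the replication-dependent genes, and in TTg against Ctrl at 2 months it was -0.72, with 9 of 13 lower, beside -1.21. H3f3a read 13.33 and 12.85 in Ctrl at 2 months, 12.07 and 11.90 in 3-month Ctrl, and 11.96 and 12.17 in TTg, so both groups at 3 months lay below the group at 2 months. Its difference between the Ctrl groups was -1.10 ± 0.26, and those of H2az2 and H2az1, genes of the variant H2A.Z, were -0.99 ± 0.31 and -0.69 ± 0.29. The linker gene H1f2 read 9.21 and 8.63, 7.45 and 7.55, and 7.96 and 7.45, a Ctrl difference of -1.42 ± 0.30. None of the 93 genes passed an adjusted p under 0.05 in either comparison by limma (adjusted p of H1f2 0.406 and of H3f3a 0.465 between the Ctrl groups). In Ctrl at 3 against 2 months the other list medians lay between -0.16 and 0.18, and in TTg against Ctrl at 2 months between -0.29 and 0.17. These 4 genes were singled out after their values were seen.

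Markers of fibroblasts and macrophages were highest and lowest on the same arrays as the histone genes. The mean log2 signal of 5 macrophage markers was 10.61 and 9.71 in Ctrl at 2 months, 10.95 and 9.34 in 3-month Ctrl, and 8.92 and 8.09 in TTg. Over 7 fibroblast markers it was 12.68 and 10.78, 12.67 and 11.55, and 11.15 and 9.72. Both lists were thus highest on replicate 1 of the Ctrl groups and lowest on TTg replicate 2, as were the histone genes. On the 3 other arrays the order differed, since fibroblast markers were lowest of these on replicate 2 of Ctrl at 2 months, where the histone median was the highest of the 3. In Ctrl at 3 against 2 months 5 of 7 fibroblast markers were higher (median 0.32) and 3 of 5 macrophage markers lower (median -0.30), beside -0.36 for the histone genes. In TTg against Ctrl at 3 months, 5 of 5 macrophage markers (median -1.51) and 7 of 7 fibroblast markers (median -1.70) were lower, and 0 of either list passed an adjusted p under 0.05 in limma. Defining genes were among them, with Adgre1 at -1.51 ± 0.43, Lyz2 at -2.06 ± 0.61, Postn at -3.09 ± 1.09 and Tcf21 at -1.86 ± 1.0. Of all 38 measured cell type markers, 1 passed the threshold, the plasma cell gene Jchain (-4.05 ± 0.27, adjusted p 0.0278 in limma). Endothelial markers had a median of 0.19 over 4 genes, with 2 lower. The part of these cell types, and of RNA quality (all specimens had an RNA integrity number over 7.0), in the histone differences was not tested.

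**Figure D5:**
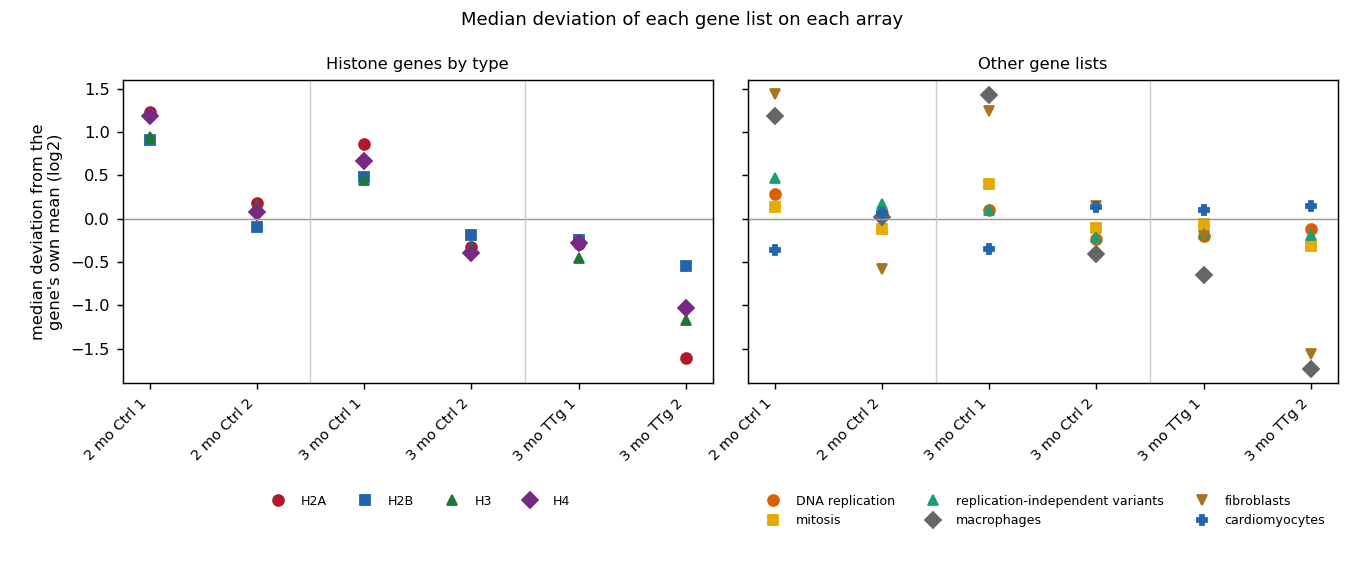
Median deviation from each gene's own mean over the 6 arrays (log2) on each array, for the 4 histone types (left) and for other gene lists (right). Replicate 1 of Ctrl at 2 months is at 1.23 for H2A and TTg replicate 2 at -1.61, macrophage markers go from 1.43 on replicate 1 of Ctrl at 3 months to -1.74 on TTg replicate 2, and DNA replication genes stay between -0.23 and 0.29.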

How the data were processed

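Values were read from the table deposited by the authors, which holds log2 values per feature of Clariom S mouse arrays. Transcriptome Analysis Console 4.0 is named per the submitters' processing notes. The summary, background and normalization methods and the genome build are not given in the sources used here, so differences near the top or bottom of the scale may be compressed. Per the labels, 100 ng of total RNA was labelled for each array. Precision is limited by 2 arrays per group, and no depth applies.

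All 22206 features were used as deposited. The platform annotation gave a symbol for 19572 of them, and all 49 histone genes matched a RefSeq gene ID. A feature was called dim below the 30th percentile of mean signal (3.65), and 0 features were left out. The 3 group means were fitted jointly over the 6 arrays with lmFit and eBayes of limma 3.58.1 in R 4.3.3 (3 residual and 4.13 prior degrees of freedom). Tests were two-sided, with Benjamini-Hochberg adjustment over all features and a threshold of 0.05. An exact permutation test of 2 against 2 arrays gives no p below 0.333. The 3 comparisons share groups and are not independent. Simulated data for TTg against Ctrl at 3 months had 200 of 22206 features shifted in each of 5 draws. The fit called 0.4% of log2 shifts of 1, 58% of 2, 96% of 4 and 100% of 8. False calls numbered 26 against 636 correct calls. The simulated noise was independent between features, with spreads drawn from a fit over all features. Histone genes moved together between the hearts of a group, so these rates do not apply to them.

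Histone genes were named by a rule: per comparison and type, the 3 largest absolute differences and the highest mean signal, any unadjusted p under 0.05, and any gene with values identical to another feature. In other lists the rule names the 3 largest differences for TTg against Ctrl at 3 months, and always Ccna2, Mki67, Pcna and Slbp. Others were named as examples of a role (Bub1, Npat, Lsm11, H3f3a and the cell type markers) or where the text says so. The histone genes, lists and comparisons were chosen with earlier results of these data known. Figures and motif counts were made in Python 3.11.15.

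Alternatives were a replicate block, leaving out each array, counting identical values once, fitting only the 2 groups compared, quantile normalization or median centring of the arrays, a fit without dim features, and a prior with an intensity trend or made robust. The labels number the replicates of each group, and the numbers are not stated to pair hearts across groups.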

Additional observations from a re-analysis of the deposited data

How the results depend on the processing

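Outside the leave-one-out values, 742 of 744 alternative values kept their side of the threshold, and 0 took the opposite sign. Most of these signs were fixed in advance. The block, the fit of only the 2 groups, the changed priors and the fit without dim features leave a gene's difference of group means as it was. Among these alternatives, only quantile normalization and median centring could turn the sign of a single gene. The 2 exceptions came from the replicate block. With the replicate number as a block, 1 histone gene passed the threshold in TTg against Ctrl at 2 months, H4c14 with an adjusted p of 0.0327 in limma, and the counts stayed 0 in the other comparisons (smallest adjusted p 0.0896 and 0.252). Genes lower at an unadjusted p under 0.05 went from 7 to 25 in TTg against Ctrl at 3 months, from 4 to 9 in Ctrl at 3 against 2 months and from 26 to 32 in TTg against Ctrl at 2 months. Deviations of same-numbered arrays correlated over all features at 0.133, 0.136 and 0.12 for the 3 pairs of groups, and over the 49 histone genes at 0.328, 0.269 and 0.542. The labels do not pair the samples, and with 2 numbers per group the numbers were not taken as pairs. With 1 array left out, the lone array was assumed to vary like the other groups, and 18 values for 13 differences of single genes turned sign, as did 5 values of medians in Ctrl at 3 against 2 months. The ranges of those medians were -0.86 to 0.06 for all 49 genes, -1.0 to 0.28 for H2A and -0.81 to 0.10 for H2B. For single genes in Ctrl at 3 against 2 months they were -1.80 to 0.10 for H2bc14, -1.75 to 0.10 for H2bc11, -1.18 to 0.28 for H2ac22, -1.17 to 0.35 for H2ac24, -1.08 to 0.07 for H2ac12, -1.70 to 0.09 for H4c18 and -0.51 to 0.54 for H4c11. In TTg against Ctrl at 3 months they were -0.95 to 0.10 for H4c11, -1.68 to 0.04 for H4c18, -2.16 to 0.05 for H2bc18, -0.37 to 0.13 for H2bc4, -1.21 to 0.02 for H1f1 and -0.07 to 0.18 for Slbp. The cause was not tested. Other background corrections and the slide as a block were not run, since only processed values were used. Differences in dim features, H3c1 among the histone genes, are limited by signal over background.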
